A study of Arabidopsis thaliana with 36 samples.

Results

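The comparison described here asks whether 4-day-old Arabidopsis thaliana seedlings of the accessions Col-0 and Ler (called Ler-0 in the design text) answer a supply of glucose in the same way. For each gene, the change of its mRNA on glucose in Col-0 was subtracted from the change in Ler. A positive difference means that the gene rose more, or fell less, in Ler, and is called higher in Ler below. A negative difference is called lower in Ler. The comparison uses 12 of the 36 libraries of the series, in 4 groups of 3, and 17120 of the 33602 genes in the table, namely those with a value in all 24 libraries of the glucose experiments and a level of at least 1 RPM, the read count of a gene scaled to the library's reads, in at least 3 of them.

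All seedlings in the 4 groups are labelled wild type, were grown as whole seedlings in liquid MS medium without glucose, and at 4 days received 15 mM glucose for 2 h or no glucose. Col-0 was the wild type of an experiment on the kinase TOR, and Ler the wild type of a separate experiment on the hexokinase HXK1. Accession and experiment therefore cannot be told apart in any result below. The 3 libraries of a group are described by the submitters as biological replicates. The p-values rest on the spread between libraries within groups, pooled for each gene over all 24 glucose libraries, mutants included. They therefore do not measure the spread within Col-0 or Ler alone.

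Glucose taken up by plant cells is phosphorylated by hexokinases, of which HXK1 is also a glucose sensor. A sugar supply activates TOR, a protein kinase that promotes ribosome production and cell proliferation, and represses SnRK1, a kinase whose catalytic subunit KIN10 switches on catabolic genes when energy is short. Genes such as ASN1, which encodes an asparagine synthetase, are well-known markers of sugar starvation and are switched off by sugar.

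The libraries differed between the experiments in ways that touch the comparison. Reads on the tested genes, in units of 1000000, numbered 17.36 to 21.4 per library in Col-0 and 7.91 to 11.5 in Ler. Deposited RPM of the listed genes summed to 1000000 in each Col-0 library. In Ler the sum fell short of that total by 26.9 to 54.3%. The Ler libraries numbered 3 stood apart, with 54.3% missing without and 54.1% with glucose. The 17 codes with a suffix naming Ler were left out of these sums. What makes up the missing share is not known. Levels are therefore given as scaled RPM, the deposited RPM divided by a median-of-ratios factor, which was 0.497 to 0.901 in Ler and 0.941 to 1.19 in Col-0. The residual spread per library was 0.147 to 0.252 (SD, log2) in Ler and 0.0984 to 0.183 in Col-0. Summed scaled RPM of 8 tested seed storage and oil body genes, which mark residual seed mRNA, was 39.7 to 1109 in Ler without glucose and 380.4 to 1211 with glucose, against 15.5 to 29.0 and 2.64 to 45.0 in Col-0. None of the 8 was at 0 in any of the 4 groups. Of the 8, 0 were called for the difference in glucose effect by limma, edgeR or DESeq2 and 1 had an unadjusted p below 0.05. Their median difference turned with the tool, at 0.89 in limma, -1.01 in edgeR and -0.996 in DESeq2, and it was -0.36 in limma without the library of Ler without glucose numbered 1. Their part in the results was not tested. Summed shoot markers (4 genes) overlapped between the accessions, at 16592 to 22989 scaled RPM in Ler and 17438 to 29012 in Col-0. Their median Ler minus Col-0 was 0.92 (log2) without glucose and 0.17 with it, so overlapping sums do not mean equal levels of each member. Summed root hair and root surface markers (4 genes) were at 30.0 to 72.4 scaled RPM in Ler without glucose and 51.4 to 88.7 with it, against 12.9 to 19.4 and 38.7 to 57.7 in Col-0. In whole seedlings, fewer cells of a type and less RNA per cell cannot be told apart.

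Most of the glucose response was shared by the accessions. In Col-0 glucose raised 4869 genes (28.4% of those tested) and lowered 5271 (30.8%), and in Ler it raised 4702 (27.5%) and lowered 4743 (27.7%), by limma with Benjamini-Hochberg adjustment at 0.05. Of these, 7525 genes were called in the same direction in both accessions and 93 in opposite directions. Across the 17120 genes the effects in Ler and Col-0 had a Pearson r of 0.883, given as a description since genes are not independent replicates. Among the 337 genes that glucose lowered at least 4-fold in Col-0, the median effect was -2.67 (log2) in Col-0 and -2.49 in Ler, and among the 175 raised at least 4-fold it was 2.29 in Col-0 and 1.57 in Ler. These genes were picked on their Col-0 values, so the second median of each pair is given without a test. The split between raised and lowered genes depended on the scaling. With RPM as deposited, 5166 genes were raised and 2741 lowered in Col-0, and 3985 and 2546 in Ler, and the median effect over all genes moved from -0.02 to 0.15 in Col-0 and from 0.00 to 0.10 in Ler. With RPM recomputed over the tested genes, the splits were 6371 and 3673 in Col-0 and 6386 and 3233 in Ler.

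The glucose effect differed between Ler and Col-0 in 1362 genes (7.96%), of which 677 were higher in Ler (3.95%) and 685 lower (4.00%). For 1236 of them all 9 differences between a Ler library with glucose and one without lay on one side of all 9 such differences in Col-0, a separation found in 2164 of all tested genes (12.6%). Called differences ranged from -3.01 to 2.89 on the log2 scale, with a median size of 0.77. The count was lowest with RPM as deposited, which leaves the missing Ler share uncorrected. There 285 genes were called, 106 higher and 179 lower, of which 275 were among the 1362. With RPM recomputed over the tested genes, 1147 were called. Without the library of Col-0 with glucose numbered 2 the count was 859, and without both Ler libraries numbered 3 it was 1231, of which 1013 were among the 1362.

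**Figure D1:**
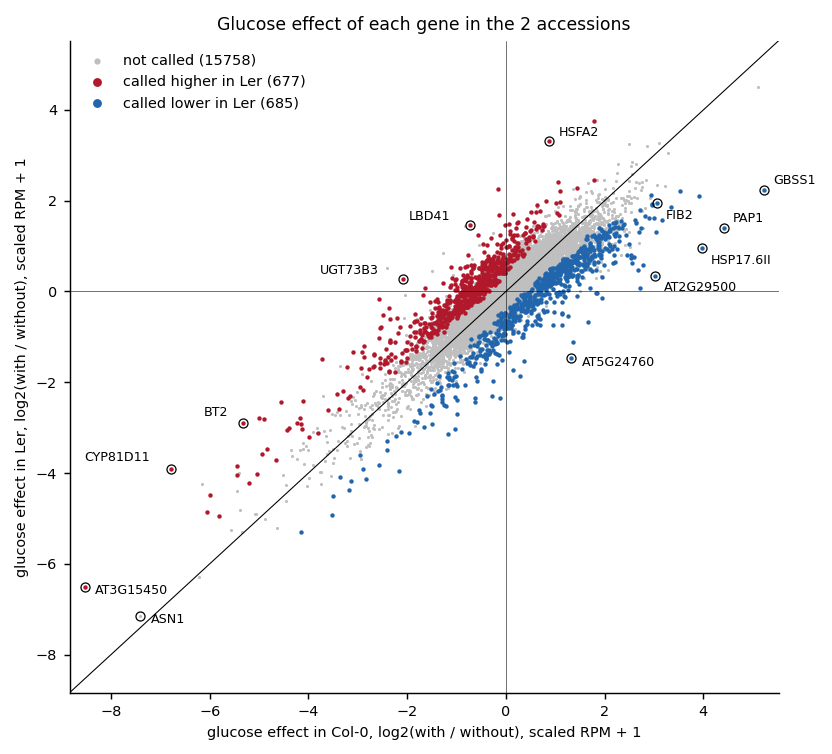
Glucose effect (log2 of scaled RPM + 1, with over without glucose) of each of 17120 genes in Col-0 (horizontal axis) and Ler (vertical axis), with genes called higher in Ler in red, lower in blue and not called in grey; the diagonal marks equal effects. PAP1, GBSS1, HSP17.6II and AT2G29500 lie far below the diagonal at the right, and BT2, CYP81D11 and AT3G15450 above it at the left.

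The larger share of the called genes responded less in Ler. Over all 17120 tested genes the median size of the effect was also larger in Col-0, at 0.41 against 0.37 in Ler. The split that follows was not counted over all genes or under other scalings. Of the 1362, 865 (63.5%) had an effect called in Col-0 that in Ler was weaker in the same direction or not called, 419 of them raised and 446 lowered in Col-0. Another 403 had an effect called in Ler that was stronger than in Col-0 or not called there, 172 raised and 231 lowered. The remaining genes were the 93 with opposite directions, 58 lowered in Col-0 and raised in Ler and 35 the reverse, and 1 gene with neither effect called. In 904 of the 1362 (66.4%), Ler and Col-0 differed more in level without glucose than with it, against 9989 of all tested genes (58.3%).

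**Figure D2:**
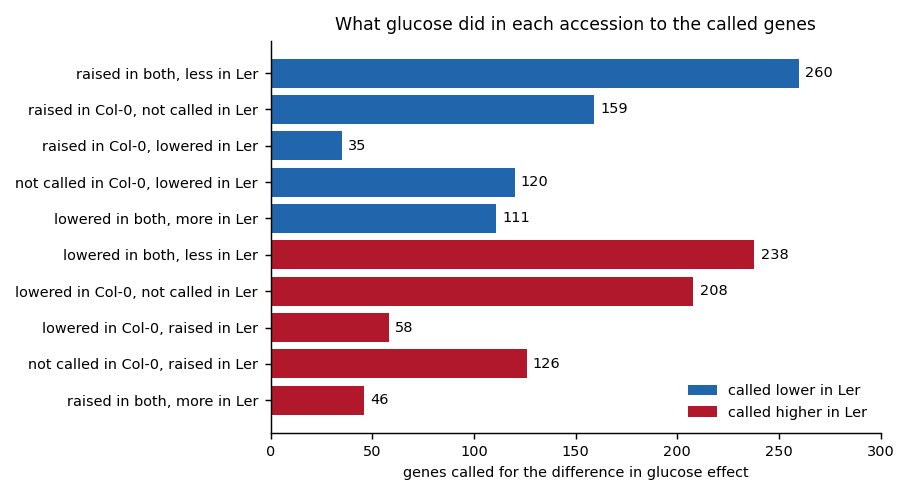
Number of genes called for the difference in glucose effect (bars, horizontal axis), sorted by whether glucose raised, lowered or did not change them past the threshold in each accession. The longest bars are 260 genes raised in both accessions but less in Ler and 238 lowered in both but less in Ler.

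The glucose effect on the glucose sensor and the energy kinases themselves did not differ past the threshold. Of 19 tested genes of glucose sensing and energy signalling 0 were called by limma, edgeR or DESeq2 and 4 had an unadjusted p below 0.05, with a median difference of 0.04 against 0.00 for all genes and a range of -0.41 to 0.51. HXK1 (AT4G29130) stood at 49.8, 48.2 and 43.4 scaled RPM in Col-0 without glucose and 73.5, 77.1 and 70.5 with it, and at 50.1, 56.6 and 43.7 and then 73.5, 73.4 and 60.1 in Ler. The accessions overlapped at either condition, and glucose raised HXK1 by 0.64 ± 0.10 (log2, SE) in Col-0 and 0.45 ± 0.10 in Ler, a difference of -0.18 ± 0.14 (adjusted p = 0.521). TOR (AT1G50030) fell in both accessions, with effects of -0.45 ± 0.11 in Col-0 and -0.41 ± 0.11 in Ler and a difference of 0.04 ± 0.16 (adjusted p = 0.937). KIN10 (AT3G01090), the catalytic subunit of SnRK1, fell likewise, by 0.45 ± 0.10 in Col-0, with an effect of -0.44 ± 0.10 in Ler and a difference of 0.01 ± 0.15 (adjusted p = 0.992). Their levels did differ between the accessions in limma. For TOR, Ler minus Col-0 was 0.41 ± 0.11 without glucose (adjusted p = 0.00281) and 0.45 ± 0.11 with it (adjusted p = 0.00168). For KIN10 it was -0.36 ± 0.10 at either condition (adjusted p = 0.0051 without and 0.00663 with glucose).

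Sugar starvation genes fell in both accessions, and a part of them fell less far in Ler. Glucose lowered 32 of the 33 tested genes of this list in Col-0 and 32 in Ler, with median effects of -4.02 and -3.12. The difference was called higher in 10 and lower in 0, against 3.95% and 4.00% of all genes, and the list's median difference was 0.35. With RPM as deposited 5 were called higher. The called members were BT2, AT3G15450, AT1G80440, DIN2, DIN4, IVD, TPS8, MCCA, ETFQO and ATG8E, which include branched-chain amino acid breakdown enzymes (DIN4, IVD, MCCA), the electron carrier that serves it in mitochondria (ETFQO) and an autophagy protein (ATG8E). The best-known marker was not among them. ASN1 (AT3G47340) stood at 1246, 2305 and 1732 scaled RPM in Col-0 without glucose and at 10.9, 8.55 and 7.77 with it, and in Ler at 1427, 1441 and 1055 and then 8.59, 5.50 and 11.1. Its fall was close to complete in every library of both accessions, with effects of -7.42 ± 0.26 in Col-0 and -7.15 ± 0.26 in Ler, and the difference was 0.27 ± 0.37 (adjusted p = 0.745).

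BT2 (AT3G48360), a BTB and TAZ domain scaffold protein known to be repressed by sugar, showed the largest difference of the list. Without glucose it stood at 559, 865 and 744 scaled RPM in Col-0 and 672, 533 and 535 in Ler, which overlap. With glucose it was at 12.6, 15.4 and 24.4 in Col-0 and 80.9, 82.4 and 67.6 in Ler, which do not. The effect was -5.32 ± 0.24 in Col-0 and -2.89 ± 0.24 in Ler, a difference of 2.43 ± 0.33 (adjusted p = 8.42e-05). AT3G15450, annotated as an aluminum-induced protein with YGL and LRDR motifs, had 739, 1400.0 and 1122 scaled RPM in Col-0 and 2983, 2974 and 2333 in Ler without glucose. On glucose it dropped to 1.99, 1.38 and 2.18 in Col-0 but remained at 20.6, 22.7 and 52.7 in Ler, the highest of these in the library numbered 3, a difference in effect of 2.03 ± 0.35 (adjusted p = 0.000732). Levels near 1 scaled RPM are held up by the 1 RPM added before taking logs, so the fall in Col-0 is understated for such genes. AT1G80440, a kelch repeat protein, had means of 58.1 ± 20.3 (SD, n = 3) and 1.73 ± 0.29 scaled RPM in Col-0 without and with glucose, and 136 ± 17.8 and 16.0 ± 0.86 in Ler, and its difference was 1.38 ± 0.25 (adjusted p = 0.00122).

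Further genes that glucose lowered less in Ler lay outside the lists. AT4G27450, with the same annotation as AT3G15450, went from 40.1, 57.8 and 45.2 scaled RPM to 1.23, 0.652 and 1.34 in Col-0, and from 125, 121 and 144 to 13.8, 29.0 and 31.2 in Ler (difference 2.13 ± 0.53, adjusted p = 0.015). AT2G32150, annotated as a haloacid dehalogenase-like hydrolase, went from 53.9, 87.9 and 71.5 to 1.27, 0.733 and 1.72 in Col-0, and from 920.0, 697 and 824 to 117, 106 and 124 in Ler (difference 2.21 ± 0.24, adjusted p = 6.8e-06). In both genes every Ler library was above every Col-0 library at the same condition, so that the accessions already differed without glucose.

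**Figure D3:**
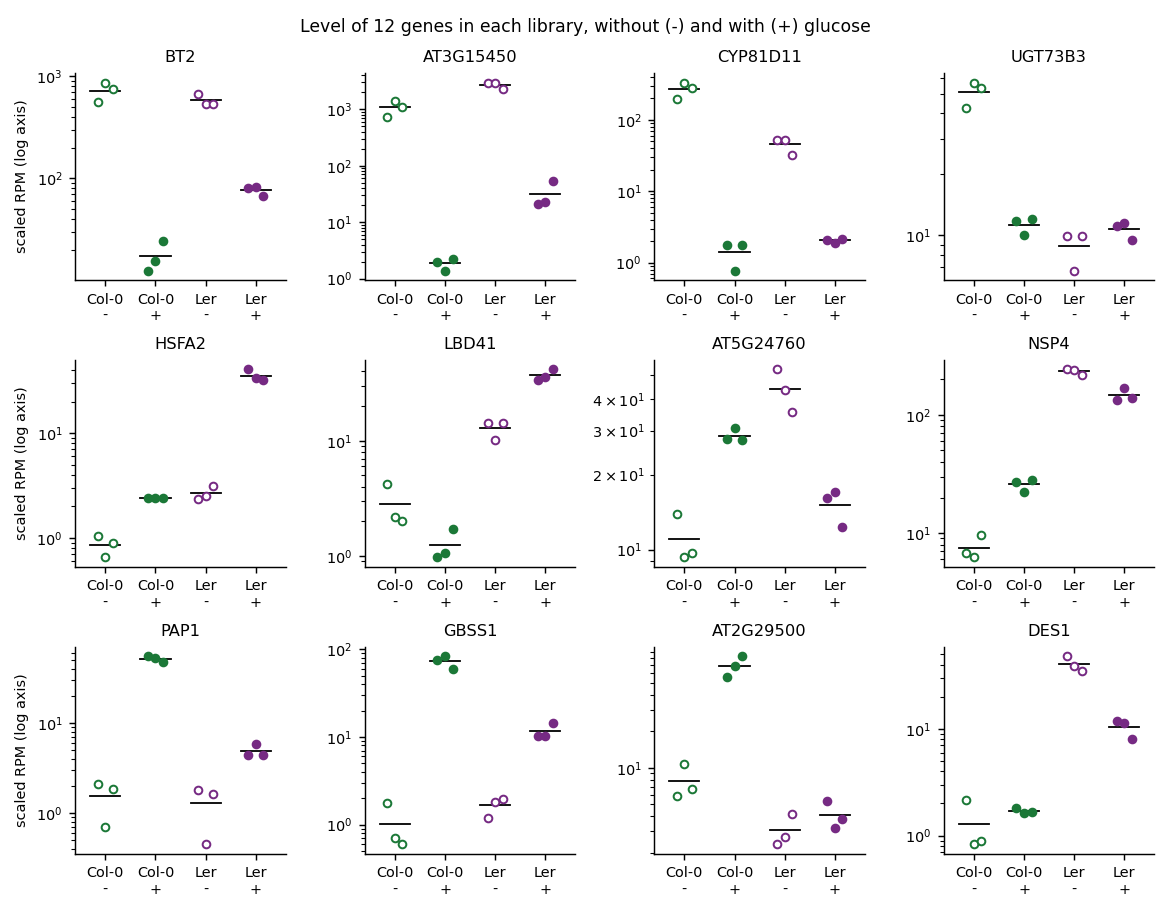
Scaled RPM (log axis) of 12 genes in each of the 12 libraries, in Col-0 (green) and Ler (purple) without glucose (open circles) and with it (filled circles), with a line at the mean of 3 libraries. BT2 and AT3G15450 fall further in Col-0, HSFA2 reaches 32.1 to 40.4 in Ler with glucose, and PAP1 and GBSS1 rise further in Col-0.

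CYP81D11 and UGT73B3 fell in Col-0 and stood lower in Ler than in Col-0 before glucose was given. CYP81D11 (AT3G28740), a cytochrome P450 known for induction by xenobiotics, had the largest positive difference among the called genes. In Col-0 it stood at 198, 331 and 275 scaled RPM without glucose and 1.74, 0.774 and 1.76 with it. In Ler it stood at 52.6, 52.0 and 32.0 and then 2.101, 1.86 and 2.17, so the accessions were apart without glucose and close to each other at the low end with it. The difference was 2.89 ± 0.42 (adjusted p = 0.000139). UGT73B3 (AT4G34131), a UDP-glucosyltransferase that acts on flavonols and other small molecules, was at 42.7, 56.6 and 53.2 in Col-0 without glucose and at 11.7, 9.98 and 12.0 with it. In Ler the 6 libraries lay between 6.70 and 11.5 whether or not glucose was given, the effect was 0.27 ± 0.18 (adjusted p = 0.224) against -2.08 ± 0.18 in Col-0, and the difference was 2.34 ± 0.26 (adjusted p = 6.8e-06).

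Genes of sucrose cleavage and transport were mostly lowered in both accessions, and the 3 called of 19 tested fell less in Ler. These 3 were called higher and 0 lower, against 3.95% and 4.00% of all genes, and the list median was -0.01. ATBETAFRUCT4 (AT1G12240) and AT1G62660 belong to glycosyl hydrolase family 32, whose vacuolar invertases split sucrose. ATBETAFRUCT4 was at 216, 375 and 292 scaled RPM in Col-0 without glucose and 61.5, 63.7 and 67.2 with it, against 107, 119 and 128 and then 59.6, 67.1 and 77.3 in Ler. The accessions were apart without glucose and overlapped with it, and the difference was 1.36 ± 0.22 (adjusted p = 0.00046). AT1G62660 had effects of -2.34 ± 0.13 in Col-0 and -1.11 ± 0.13 in Ler (difference 1.23 ± 0.18, adjusted p = 0.000149). SUC2 (AT1G22710), the sucrose-proton symporter that loads the phloem, had means of 73.9 ± 14.7 and 13.5 ± 1.18 in Col-0 and 108 ± 28.0 and 48.2 ± 4.82 in Ler, with a difference of 1.24 ± 0.32 (adjusted p = 0.0175). Its adjusted p was 0.0525 without the library of Col-0 without glucose numbered 2.

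Among starch genes, GBSS1, APL3 and PHS2 rose in both accessions and by less in Ler. These 3 of 29 tested were called lower and 0 higher, against 4.00% and 3.95% of all genes, and the list median was -0.11. With RPM as deposited, and in most other settings, 2 were called. GBSS1 (AT1G32900), the granule-bound synthase that makes amylose, was at 1.76, 0.711 and 0.595 scaled RPM in Col-0 and 1.18, 1.81 and 1.97 in Ler without glucose. With glucose it was at 75.3, 83.2 and 60.3 in Col-0 and at 10.3, 10.2 and 14.4 in Ler. The accessions overlapped before glucose and were apart after it, with a difference of -2.98 ± 0.33 (adjusted p = 6.82e-06). PHS2 (AT3G46970), a cytosolic alpha-glucan phosphorylase, rose from 82.2 ± 5.74 to 358 ± 29.6 in Col-0 and from 98.1 ± 12.7 to 255 ± 27.7 in Ler (difference -0.74 ± 0.16, adjusted p = 0.00499), and its adjusted p was 0.194 with RPM as deposited. APL3 (AT4G39210), a large subunit of ADP-glucose pyrophosphorylase, rose by 3.53 ± 0.29 in Col-0 and 2.21 ± 0.29 in Ler. Its difference of -1.32 ± 0.40 was close to the threshold (adjusted p = 0.046) and missed it without any 1 of 9 libraries and in most other settings, with an adjusted p of up to 0.183.

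Most called anthocyanin genes rose in Col-0 and rose less, or did not pass the test, in Ler. Of 20 tested flavonoid and anthocyanin genes, 8 were called lower and 2 higher, against 4.00% and 3.95% of all genes. The median difference was -0.49, and the median effect was 1.199 in Col-0 and 0.85 in Ler. PAP1 (AT1G56650), the MYB transcription factor that switches on anthocyanin production, had the most negative difference of all called genes. It stood at 2.12, 0.711 and 1.83 scaled RPM in Col-0 and 1.80, 0.452 and 1.62 in Ler without glucose. With glucose it was at 55.0, 53.1 and 47.7 in Col-0 and at 4.39, 5.84 and 4.43 in Ler, so that every Col-0 library was far above every Ler library. The difference was -3.01 ± 0.33 (adjusted p = 6.8e-06) and was called in every setting tried.

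DFR and LDOX, which act in sequence in anthocyanin synthesis, were called lower in Ler with more scatter. DFR (AT5G42800), dihydroflavonol reductase, was at 1.03, 0.296 and 2.63 scaled RPM in Col-0 without glucose and 14.0, 20.201 and 8.58 with it, and in Ler at 9.18, 4.34 and 4.29 and then 7.35, 8.45 and 11.0. The Ler libraries overlapped between conditions while those of Col-0 did not. LDOX (AT4G22880), which uses the product of DFR, rose by 2.67 ± 0.43 in Col-0 and had an effect of 0.47 ± 0.43 in Ler (adjusted p = 0.377). The differences were -2.20 ± 0.62 for DFR (adjusted p = 0.0317) and -2.21 ± 0.61 for LDOX (adjusted p = 0.0277), and both calls were lost without any 1 of several libraries, with an adjusted p of up to 0.095 for DFR and 0.0831 for LDOX. AT4G14090, a UDP-glycosyltransferase of the list, rose by 2.60 ± 0.30 in Col-0 and by 0.76 ± 0.30 in Ler, a difference of -1.84 ± 0.43 (adjusted p = 0.00912), and its highest adjusted p in any setting was 0.0355. GSTF12, C4H and EGL3 also rose in Col-0 with a lower effect in Ler. MYBL2, a MYB protein that represses anthocyanin genes, fell in both accessions and further in Ler, with a difference of -1.39. UGT78D2, a flavonoid glucosyltransferase, and MYB111, an activator of flavonol synthesis, were higher in Ler, with differences of 0.91 and 1.49. The count of 8 lower was 3 without the library of Col-0 without glucose numbered 2, 4 or 5 without any 1 of 6 other libraries (numbers 1 and 2 of Col-0 with glucose and of Ler with glucose, and number 1 of Col-0 and of Ler without glucose), and 5 without both Ler libraries numbered 3.

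Ribosome genes rose on glucose in both accessions and by less in Ler at the members that were called. Glucose raised 32 of 32 tested ribosome biogenesis genes in Col-0 and 31 in Ler, with medians of 1.67 and 1.26. The difference was called lower in 6 and higher in 0, against 4.00% and 3.95% of all genes. The list median was -0.40, and 29 of the 32 differences were below 0. FIB2 (AT4G25630), a fibrillarin that methylates ribosomal RNA, was at 27.3, 23.9 and 25.5 scaled RPM in Col-0 without glucose and 227, 234 and 203 with it, and at 36.2, 52.0 and 53.1 and then 197, 171 and 180.4 in Ler. Before glucose the Ler libraries were the higher ones and after it the lower ones, and the difference was -1.11 ± 0.19 (adjusted p = 0.000584). AT5G11240, a WD-40 repeat protein of the list, rose from 14.6 ± 1.42 to 59.0 ± 1.25 in Col-0 and from 14.4 ± 2.46 to 37.2 ± 1.08 in Ler (difference -0.62 ± 0.15, adjusted p = 0.0104). The count of 6 was 3 without the library of Col-0 without glucose numbered 2, and 1 with RPM as deposited.

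Among 30 tested ribosomal protein genes, 28 were raised in Col-0 and 22 in Ler, with medians of 0.76 and 0.46. The difference was called lower in 8 and higher in 0, against 4.00% and 3.95% of all genes, and the list median was -0.32. RPS6 (AT4G31700), the small-subunit protein whose phosphorylation is a readout of TOR activity, was at 250.3, 236 and 239 scaled RPM in Col-0 without glucose and 549, 593 and 536 with it. In Ler it was at 370.2, 346 and 278 and then 464, 516 and 387, so all Ler libraries were above Col-0 before glucose and below it after. The difference was -0.75 ± 0.16 (adjusted p = 0.006). RPL23AB (AT3G55280) rose by 1.29 ± 0.11 and by 0.68 ± 0.11 (difference -0.62 ± 0.15, adjusted p = 0.0152). The count of 8 was 3 to 5 without any 1 of 8 libraries (all 6 of Col-0, and number 2 of Ler without and with glucose), 4 without both Ler libraries numbered 3, and 0 with RPM as deposited, where the list median was -0.41. Ribosomal proteins, fibrillarins and heat shock proteins come from families of near-identical genes, and how reads matching several genes were counted is not given in the sources used here, so values of single members are uncertain.

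The cell cycle lists gave 1 call. Glucose raised 30 of 32 tested DNA replication genes in each accession, with medians of 0.96 and 0.95. The difference was called lower in 1, the cyclin CYCD3;3, and higher in 0, against 4.00% and 3.95% of all genes. That call was lost without any 1 of 8 libraries (number 3 of Col-0 without glucose, 1 and 2 of Col-0 with glucose, 2 and 3 of Ler without glucose, and all 3 of Ler with glucose). It was also lost with RPM as deposited or over the tested genes, weights per group, a replicate block, and without both Ler libraries numbered 3. Of 22 mitosis genes, 8 were raised in Col-0 and 2 in Ler, 0 were called for the difference in either direction by limma, and the median difference was -0.36, with 21 of 22 below 0. DESeq2 and edgeR also called 0 of the mitosis genes, and 5 had an unadjusted p below 0.05 in limma. In photosynthesis, 18 of 40 tested genes were lowered in Col-0 and 19 in Ler, and only LHCB3 was called for the difference, against 7.96% of all genes.

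**Figure D4:**
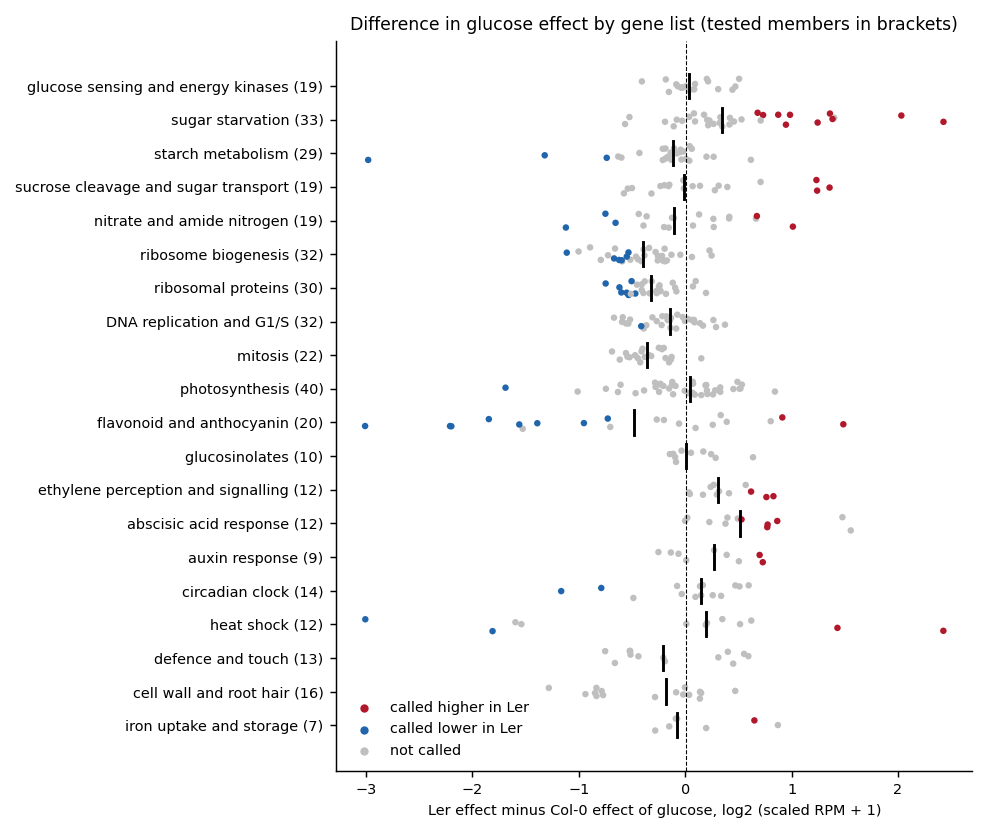
Difference in glucose effect (log2, horizontal axis) of each tested member of 20 gene lists, called higher in Ler in red, lower in blue and not called in grey, with a black bar at each list's median and a dashed line at the median of all genes. The starvation, ethylene and abscisic acid lists hold calls only to the right, and the starch and both ribosome lists only to the left.

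LHCB3 (AT5G54270), a protein of the light-harvesting antenna of photosystem II, moved in opposite directions. It rose in Col-0, from 149.6, 218 and 176 scaled RPM to 360.4, 364 and 322, and fell in Ler, from 849, 866 and 585 to 556, 469 and 358. The groups without and with glucose were apart in both accessions, and the difference was -1.69 ± 0.34 (adjusted p = 0.00276). AT5G24760, annotated as a zinc-binding alcohol dehydrogenase-like protein, went from 13.9, 9.30 and 9.72 up to 27.6, 30.6 and 27.4 in Col-0 and from 52.7, 43.5 and 35.7 down to 16.1, 17.0 and 12.3 in Ler. Without glucose all Ler libraries were above Col-0, and with glucose all were below it. Its difference of -2.79 ± 0.21 (adjusted p = 6.43e-08) had the smallest adjusted p among the genes named here.

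NSP4 and IGMT2, named for the size of their differences and not members of the glucosinolate list, also moved in opposite directions. NSP4 (AT3G16410), a nitrile specifier protein that steers glucosinolate breakdown, rose from 6.72, 6.22 and 9.62 scaled RPM to 27.2, 22.2 and 28.1 in Col-0 and fell from 242, 240.3 and 218 to 134, 168 and 139 in Ler. Every Ler library was above every Col-0 library, and the difference in effect was -2.34 ± 0.22 (adjusted p = 1.26e-06). IGMT2 (AT1G21120), an indole glucosinolate methyltransferase, rose by 1.37 ± 0.28 in Col-0 and fell by 1.11 ± 0.28 in Ler (difference -2.47 ± 0.40, adjusted p = 0.00046). Of the 10 tested genes of glucosinolate synthesis, 7 were raised in each accession and 0 were called for the difference by limma or edgeR, with 1 at an unadjusted p below 0.05 and 1 called higher by DESeq2. DES1 (AT5G28030), a cysteine desulfhydrase that releases hydrogen sulfide, was low in Col-0 at either condition, between 0.83 and 2.17, and fell in Ler from 47.8, 38.5 and 35.0 to 11.9, 11.3 and 7.96 (difference -2.15 ± 0.26, adjusted p = 2.62e-05). AT5G48540, annotated as related to receptor-like kinases, rose from between 7.44 and 8.16 to 62.5, 54.1 and 56.4 in Col-0, and in Ler it was at 16.5, 15.7 and 7.30 and then 15.9, 17.5 and 8.14, lowest in both libraries numbered 3 (difference -2.64 ± 0.35, adjusted p = 5.57e-05).

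Heat shock genes split by member. Of 12 tested genes, glucose raised 9 in each accession, and the difference was called higher in 2 and lower in 2, against 3.95% and 4.00% of all genes. HSFA2 (AT2G26150), a heat shock transcription factor that sustains acquired tolerance to heat, was at 1.03, 0.652 and 0.893 scaled RPM in Col-0 without glucose and 2.42, 2.403 and 2.41 with it. In Ler it was at 2.35, 2.53 and 3.13 and reached 40.4, 33.6 and 32.1 on glucose, more than any Col-0 library. The difference was 2.43 ± 0.20 (adjusted p = 1.34e-07). MBF1C (AT3G24500), a transcriptional co-activator of the heat response, was between 1.48 and 1.99 in the 6 Col-0 libraries and went from 6.51, 4.07 and 14.3 to 22.4, 17.5 and 28.7 in Ler (difference 1.43 ± 0.37, adjusted p = 0.0192). Its call was lost without number 2 of Ler without glucose or number 3 of Ler with glucose, with an adjusted p of up to 0.0865 in any setting.

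The members called lower were HSP17.6II and HSP70. HSP17.6II (AT5G12020), a small heat shock chaperone, rose from 1.08, 0.711 and 0.446 scaled RPM to 20.18, 28.4 and 30.9 in Col-0, and in Ler it was at 0.314, 0.633 and 4.17 without glucose and 3.44, 2.96 and 3.71 with it, where the library numbered 3 without glucose lay above the others. The difference was -3.01 ± 0.54 (adjusted p = 0.00108), and its highest adjusted p in any setting was 0.0385. HSP17.4 and HSP17.6A, the other tested small heat shock proteins of the list, had differences of -1.60 and -1.54 and did not pass the test (adjusted p = 0.347 and 0.348). AT2G29500, annotated as an HSP20-like chaperone and not a member of the list, rose from 5.84, 10.8 and 6.70 to 55.5, 68.9 and 82.4 in Col-0, and in Ler the 6 libraries lay between 2.35 and 5.35 (difference -2.68 ± 0.28, adjusted p = 5.11e-06). HSP70 (AT3G12580) rose by 3.92 ± 0.31 in Col-0 and by 2.11 ± 0.31 in Ler, from 45.9, 36.4 and 135 scaled RPM to 269.8, 257 and 272, again with the library numbered 3 highest before glucose (difference -1.81 ± 0.43, adjusted p = 0.0108).

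Hormone signalling genes held called differences in 1 direction. All 12 tested genes of ethylene perception and signalling had a difference above 0, with a median of 0.31. Of them 3 were called higher and 0 lower, against 3.95% and 4.00% of all genes. CTR1 (AT5G03730), the kinase that represses ethylene signalling, went from 124, 139 and 124 scaled RPM to 54.6, 55.4 and 54.6 in Col-0 and from 137, 149 and 143 to 95.4, 93.1 and 94.1 in Ler. It fell in both accessions, to lower levels in Col-0, and the difference was 0.62 ± 0.12 (adjusted p = 0.00169). ETR2 (AT3G23150), an ethylene receptor, fell in Col-0 by 0.47 ± 0.12 and rose in Ler by 0.36 ± 0.12 (difference 0.83 ± 0.17, adjusted p = 0.0041). EBF2 (AT5G25350), an F-box protein that removes the transcription factor EIN3, had effects of -1.43 ± 0.15 in Col-0 and -0.66 ± 0.15 in Ler (difference 0.76 ± 0.21, adjusted p = 0.026), and its call was lost without number 2 of Col-0 without glucose, without number 1 or 2 of Col-0 with glucose, or without both Ler libraries numbered 3.

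In the abscisic acid response list 4 of 12 tested genes were called higher and 0 lower, against 3.95% and 4.00% of all genes, with a list median of 0.51. ABF2 (AT1G45249), a bZIP factor that binds abscisic acid response elements, was at 43.0, 42.4 and 42.1 scaled RPM in Col-0 without glucose and 25.3, 26.9 and 24.1 with it, and between 14.6 and 17.36 in the 6 Ler libraries. It fell in Col-0 by 0.72 ± 0.10, and the effect in Ler was 0.15 ± 0.10 (adjusted p = 0.219), a difference of 0.87 ± 0.14 (adjusted p = 0.000455). ABF3 (AT4G34000), of the same family, and HAB1 (AT1G72770), a phosphatase that represses the pathway, both fell further in Col-0, with differences of 0.77 ± 0.17 (adjusted p = 0.00607) and 0.77 ± 0.14 (adjusted p = 0.00103). ABF4 was the other called member. With RPM as deposited, 0 genes of either hormone list were called, and the medians were 0.23 and 0.41.

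The nitrogen list held calls in both directions. Of 19 tested genes of nitrate and amide nitrogen, 2 were called higher (NRT1.1 and NIA1) and 3 lower (NRT2:1, ASN3 and RFNR2). The share of all genes was 3.95% higher and 4.00% lower, and the list median was -0.11. NRT1.1 (AT1G12110), a nitrate transporter and sensor, rose from 81.3, 86.4 and 66.7 scaled RPM to 261, 275 and 271 in Col-0 and from 30.0, 27.5 and 28.2 to 169, 161 and 152 in Ler. The Ler libraries were lower at either condition, and the difference was 0.67 ± 0.17 (adjusted p = 0.0161). ASN3 (AT5G10240), another asparagine synthetase, went from 20.09 ± 1.82 to 58.8 ± 2.07 in Col-0 and from 31.9 ± 4.29 to 54.4 ± 1.98 in Ler (difference -0.75 ± 0.14, adjusted p = 0.00178). With RPM as deposited 0 were called higher and 1 lower, and the adjusted p was 0.369 for NRT1.1 and 0.141 for ASN3. With the 12 libraries alone 1 was called in each direction. The counts also rested on single libraries: 1 gene was called higher without number 2 or 3 of Col-0 without glucose, without any 1 of Col-0 with glucose, or without number 3 of Ler without or with glucose, and 1 was called lower without number 1 or 2 of Col-0 with glucose, number 3 of Ler without glucose, or number 1 or 3 of Ler with glucose.

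Among the remaining lists, 2 of 9 auxin response genes (IAA7 and WES1) and 1 of 7 iron genes (ZIF1) were called higher in Ler, and 2 of 14 clock genes (FKF1 and PRR5) lower, against 3.95% of all genes higher and 4.00% lower. On RPM as deposited, 0 auxin genes, 0 iron genes and 1 clock gene were called. The ZIF1 call was lost without any 1 of 8 libraries (numbers 1 and 2 of Col-0 without and with glucose, and 1 and 3 of Ler without and with glucose), and 1 auxin gene was called without number 2 of Col-0 or of Ler with glucose. In limma 0 of 13 defence and touch genes and 0 of 16 cell wall and root hair genes were called, with 3 and 5 at an unadjusted p below 0.05, while edgeR and DESeq2 each called 1 lower in each of these lists.

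LBD41 (AT3G02550), a LOB domain transcription factor known for induction at low oxygen, was at 4.18, 2.19 and 2.03 scaled RPM in Col-0 without glucose and 0.975, 1.06 and 1.72 with it. In Ler it went from 14.1, 10.1 and 14.4 to 33.6, 36.01 and 41.4, above every Col-0 library at either condition. It fell in Col-0 by 0.73 ± 0.25 and rose in Ler by 1.46 ± 0.25 (difference 2.19 ± 0.35, adjusted p = 0.000383). AT3G10040, annotated as a DNA-binding transcription factor, likewise fell in Col-0 by 0.77 ± 0.20 and rose in Ler by 0.81 ± 0.20 (difference 1.58 ± 0.28, adjusted p = 0.00104). MT1B (AT5G56795), a metallothionein that binds metal ions, was at 8.05 ± 0.50 and 7.23 ± 2.21 in Col-0 and rose from 1.71 ± 0.88 to 11.7 ± 3.63 in Ler (difference 2.42 ± 0.35, adjusted p = 0.000146).

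**Figure D5:**
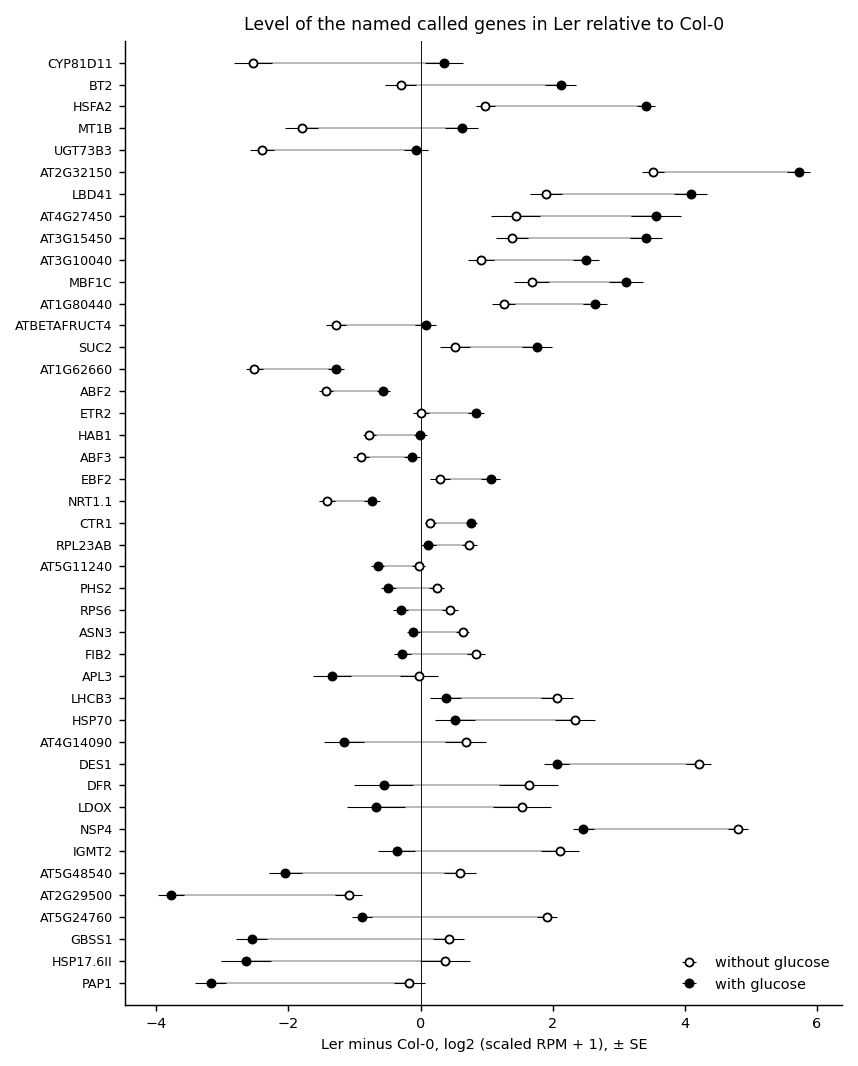
Level in Ler minus level in Col-0 (log2 of scaled RPM + 1, ± SE from the fit) of the 43 named genes with a called difference, without glucose (open circles) and with it (filled circles), in order of the difference in glucose effect. For PAP1, GBSS1 and BT2 the accessions were close without glucose and apart with it, and for CYP81D11 and UGT73B3 the reverse.

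The point at which the accessions parted differed between these genes. Without glucose, Ler minus Col-0 was -0.17 for PAP1, 0.42 for GBSS1 and -0.30 for BT2, and with glucose it was -3.17, -2.55 and 2.12. For CYP81D11 and UGT73B3 it was -2.53 and -2.41 without glucose and 0.36 and -0.06 with it. For HSFA2 and LBD41, Ler was higher by 0.98 and 1.90 without glucose and by 3.41 and 4.09 with it. Differences in level between accessions can also come from sequence differences that change how reads align, which was not tested.

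Each experiment also held a mutant, whose glucose effects from the same fit are set beside those of its wild type as values only. For HSFA2 the effect was 0.88 ± 0.14 in Col-0 and 0.54 ± 0.14 in tor, an inducible mutant of TOR in the Col-0 experiment, and 3.31 ± 0.14 in Ler and 3.90 ± 0.14 in gin2, a mutant of HXK1 in the Ler experiment. For LBD41 it was -0.73 ± 0.25 in Col-0 and -0.32 ± 0.25 in tor, and 1.46 ± 0.25 in Ler and 3.28 ± 0.25 in gin2. For AT2G29500 it was 3.02 ± 0.20 in Col-0 and 0.39 ± 0.20 in tor, and 0.33 ± 0.20 in Ler and 0.59 ± 0.20 in gin2. For GBSS1 it was 5.23 ± 0.24 in Col-0 and 4.95 ± 0.24 in tor, and 2.25 ± 0.24 in Ler and 0.53 ± 0.24 in gin2. For AT5G24760 it was 1.32 ± 0.15 in Col-0 and 0.37 ± 0.15 in tor, and -1.47 ± 0.15 in Ler and -0.57 ± 0.15 in gin2.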

How the data were processed

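Messenger RNA was sequenced in 36 libraries, of which the 12 of wild-type Col-0 and Ler without and with glucose are compared here. The processing notes of the submitters name TopHat and HTSeq. The sources used here give no versions, genome build, strand setting or handling of reads that match several genes. The authors deposited RPM per gene in 1 table. Symbols were taken from a RefSeq table by gene code, found for 17108 of the 17120 tested genes, and no coordinates or sequences are printed.

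RPM of the 24 glucose libraries was scaled by median-of-ratios factors over the 17120 genes, taken as log2(scaled RPM + 1), and fitted with limma 3.58.1 in R 4.3.3 (mean-variance trend, 8 groups, no covariate). Libraries of tor and gin2 entered the fit to share the estimate of spread. The difference in effect is a contrast of that fit. Tests were two-sided, with Benjamini-Hochberg adjustment over 17120 genes and a threshold of 0.05. Errors of log2 values are SE from the fit, and errors of levels are SD over 3 libraries. All values were whole multiples of 1 read within 0.02 reads (100% of values). The recovered reads were used for edgeR 4.0.16 and DESeq2 1.42.0, which called 1323 and 1598 genes. The procedure was also run on simulated data with the same spread setting for all genes and libraries. Those data held neither the unequal spread nor the missing RPM share of the Ler libraries, so they say nothing on either. The log2 scale with 1 RPM added understates changes of low genes. Depth was 7.91 to 21.4 times 1000000 reads on tested genes per library. These are read counts without molecular identifiers, so depth speaks for counting error only.

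Of 479 entries in 23 gene lists, 460 matched the annotation by code and symbol and 18 by code and product, 1 was dropped, and 416 were tested. Members and lists were chosen with earlier results of these data known. Lists are described by counts and medians, with no test. Eligible for naming were called genes with a mean of at least 5 scaled RPM in the highest group and no overlap of the 9 by 9 differences (the 12 largest higher and the 12 largest lower). To these were added up to 4 called members of each list with at least 3, the 5 opposite genes with the largest smaller effect, and HXK1, TOR, KIN10, ASN1 and AT3G15450. The text gives values for a selection of these and names other called list members without values. Alternatives were other scalings, the 12 libraries alone, weights per group, a pseudocount of 0.25, a minimum of 5 RPM, a 2-fold minimum, a replicate block, edgeR, DESeq2, and leaving out libraries. For 17 codes with a suffix naming Ler no test was made.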

Additional observations from a re-analysis of the deposited data

Results flagged for a closer look

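Each result here is a gene whose glucose effect differed between Ler and Col-0 by the test of the difference itself (limma, adjusted p below 0.05), with its difference on the log2 scale. Accession and experiment cannot be told apart for any of them, and groups of 3 libraries are too small to test for a single outlying library.

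Higher in Ler after a fall in Col-0 were CYP81D11 (2.89), BT2 (2.43), UGT73B3 (2.34), AT2G32150 (2.21), AT4G27450 (2.13), AT3G15450 (2.03), AT1G80440 (1.38), ATBETAFRUCT4 (1.36), SUC2 (1.24), AT1G62660 (1.23), ABF2 (0.87), ABF3 (0.77), HAB1 (0.77), EBF2 (0.76) and CTR1 (0.62). Higher in Ler with a rise in Ler were HSFA2 (2.43), MT1B (2.42), LBD41 (2.19), AT3G10040 (1.58), MBF1C (1.43), ETR2 (0.83) and NRT1.1 (0.67).

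Lower in Ler after a rise in Col-0 were PAP1 (-3.01), HSP17.6II (-3.01), GBSS1 (-2.98), AT2G29500 (-2.68), AT5G48540 (-2.64), LDOX (-2.21), DFR (-2.20), AT4G14090 (-1.84), HSP70 (-1.81), APL3 (-1.32), FIB2 (-1.11), RPS6 (-0.75), ASN3 (-0.75), PHS2 (-0.74), AT5G11240 (-0.62) and RPL23AB (-0.62). Lower in Ler with a fall in Ler were AT5G24760 (-2.79), IGMT2 (-2.47), NSP4 (-2.34), DES1 (-2.15) and LHCB3 (-1.69).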

How the results depend on the processing

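The count of 1362 differences in glucose effect was lowest with RPM as deposited, while RPM recomputed over the tested genes gave 1147. Without any 1 Col-0 library it fell to between 859 and 1123. With RPM as deposited 285 were called, with a 2-fold minimum 345, and leaving out each library in turn gave 859 to 1570, the lowest without the library of Col-0 with glucose numbered 2. The other alternatives gave 1003 (12 libraries alone) to 1598 (DESeq2). A 2-fold minimum left 2769 of 10140 glucose effects in Col-0 and 2219 of 9445 in Ler, and the other alternatives stayed within 1.5 times. No filter equals the main setting, since all 17120 genes passed the filter. Of the 43 named genes with a called difference, 26 kept the call under every alternative other than the 2-fold minimum, and RPM as deposited lost 12. None of the 43 changed sign under any alternative, while among all 1362 called genes 5 had the opposite sign in edgeR and 5 in DESeq2. The sign changed for ASN1 (-0.0865), TOR (-0.0400) and KIN10 (-0.107) without both Ler libraries numbered 3, for TOR (-0.0461) and KIN10 (-0.0745) with RPM as deposited, and for KIN10 with RPM over the tested genes (-0.00137) and edgeR (-0.0196). Leaving out single libraries gave -0.105 to 0.139 for TOR and -0.101 to 0.0763 for KIN10. None of these passed the threshold, and the cause was not tested.

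With the replicate number as a block 1245 differences were called, 10216 effects in Col-0 and 9509 in Ler. Residuals of libraries with equal numbers correlated at 0.0211, 0.0797 and 0.272 in Col-0 and 0.125, -0.0288 and 0.618 in Ler, across genes, so the numbers were not taken as pairs. In both accessions, the libraries without glucose numbered 1 and 2 correlated best with a library of another number. Number 2 of Col-0 with glucose correlated best with its own number, at 0.0797.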

Other observations

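A list of 18 genes known for induction at low oxygen was put together after the values had been seen, with LBD41 already in view, so its counts are a description. Of 17 tested, 6 were called higher in Ler (LBD41, AT4G27450, AT3G10040, PPDK, ERF73 and ETR2) and 0 lower, against 3.95% and 4.00% of all genes, and the median difference was 0.37. AT4G27450, AT3G10040 and ETR2, like LBD41, are also among the called genes named above. The share of all genes is therefore no measure for a list made this way. PPDK, a pyruvate orthophosphate dikinase, had group means of 676 and 34.5 scaled RPM without and with glucose in Col-0 and 272 and 36.1 in Ler, a difference of 1.35 ± 0.21 (adjusted p = 0.00033). ERF73 had a difference of 0.88 ± 0.25 (adjusted p = 0.031). The fermentation enzyme ADH1 had a difference of 1.00 ± 0.50 and did not pass the test (adjusted p = 0.255), and neither did HB1, a hemoglobin (0.37 ± 0.27, adjusted p = 0.484), or the sucrose synthase SUS1 (0.28 ± 0.24, adjusted p = 0.562).

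Families of enzymes that modify small molecules were also counted after their values had been seen. All 6 tested UGT73 glycosyltransferases had a difference above 0, and 2 were called higher, UGT73B3 and UGT73B2, against 3.95% of all genes. UGT73B3 is also named above for the size of its difference, so this count is a description. UGT73B2 was at a mean of 174 scaled RPM in Col-0 without glucose and 27.9 with it, and at 33.5 and 16.1 in Ler, a difference of 1.55 ± 0.25 (adjusted p = 0.00037). Of 21 tau class glutathione S-transferases, which conjugate glutathione to small molecules, 3 were called higher (GSTU7, GSTU24 and GSTU28) and 1 lower (GSTU8), against 3.95% and 4.00% of all genes, with a family median of 0.02. GSTU7 was at 102 and 10.8 scaled RPM without and with glucose in Col-0 and 50.9 and 19.3 in Ler, a difference of 1.76 ± 0.24 (adjusted p = 8.4e-05).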
